A study of Mus musculus with 4 samples.

Results

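The genes described here encode the 5 NF-kB subunits (Nfkb1, Nfkb2, Rela, Relb and Rel) and 5 of their inhibitors (Nfkbia, Nfkbie, Nfkbiz, Nfkbid and Tnfaip3). They were chosen by name, as 10 of 21887 protein-coding genes. Every H3K27ac peak overlapping a gene, or lying within 10 kb of either of its ends, was taken as a peak of that gene's window. H3K27ac is a histone acetylation of active promoters and enhancers, profiled here in C57BL/6 mouse bone marrow by a native chromatin immunoprecipitation called fanChIP, with sequencing. There were 2 immunoprecipitated libraries, 1 per group. The control group carries the genotype cKit(+), and the BN1 group carries cKit(+) BRD9-NUTM1. BRD9-NUTM1 is a fusion protein of leukaemia that joins BRD9, a bromodomain protein of BAF remodelling complexes, to the testis protein NUTM1. Cells of both groups were described as CD45.2+ bone marrow cells sorted for cKit, the receptor of stem cell factor. The extraction protocol, however, speaks of BN1 cells for every sample, controls included. The labels do not say how the fusion was introduced, how many animals were pooled or how old they were.

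NF-kB proteins are dimeric transcription factors that wait in the cytoplasm, bound by inhibitors of the IkB family. Signals from Toll-like, interleukin and TNF receptors activate the IkB kinase complex, which marks the inhibitor for degradation and frees the dimer to enter the nucleus. Several inhibitors are themselves NF-kB targets, so that the response feeds back on itself, and in myeloid and B cells the pathway is known for its part in survival, inflammation and maturation.

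The control-labelled list held 28343 peaks over 31.0 Mb, and the BN1-labelled list held 19148 peaks over 19.1 Mb. No read counts were given, so read depth is unknown, and depth limits which weak peaks could be called. Peak names inside the lists begin with BRNU for the control sample and BM for the BN1 sample, which goes against the sample titles. Groups follow the titles, and every direction below belongs to the label alone, as the control-labelled or BN1-labelled list. Ptprc, the gene of CD45, had peaks in both lists, whereas Kit, the sorting marker, had none in either. Of 9 monocyte and macrophage markers, 9 had a peak in the control-labelled list (45348 bp in all) and 6 in the BN1-labelled list (10763 bp), where Adgre1, Cx3cr1 and Cybb were at 0. Of 9 B lymphoid markers, 6 had a peak in the control-labelled list (5810 bp), with Cd79b, Ebf1 and Pax5 at 0, and 7 in the BN1-labelled list (35846 bp), with Ms4a1 and Rag1 at 0. Of 10 neutrophil and granule markers, 2 had a peak in the control-labelled list (1492 bp) and 7 in the BN1-labelled list (37845 bp). Mpo, Elane and Ly6g were at 0 in both, and Ngp, S100a9, Cxcr2, Ltf and Gfi1 at 0 in the control-labelled list. The part of these cell type markers in the differences below was not tested. With 1 library per group there is no replicate error, and no p-value was computed.

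All 10 genes were acetylated in both libraries. Every window held at least 1 peak in each list, which was so for 50.2% of all genes. The windows held 25 peaks in the control-labelled list and 23 in the BN1-labelled list. Covered length ran from 2287 bp (Rel) to 13332 bp (Nfkbid), with a median of 3964.5 bp, in the control-labelled list, and from 1920 bp (Nfkb2) to 10189 bp (Nfkbid), with a median of 2717.5 bp, in the BN1-labelled list. An acetylated region within 1000 bp of a gene end was present in both lists at 9 of the 10 genes, against 38.4% of all genes. The exception was Nfkb2, whose peak lay inside the gene span, over start sites of the gene that are annotated away from its outermost end.

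**Figure D1:**
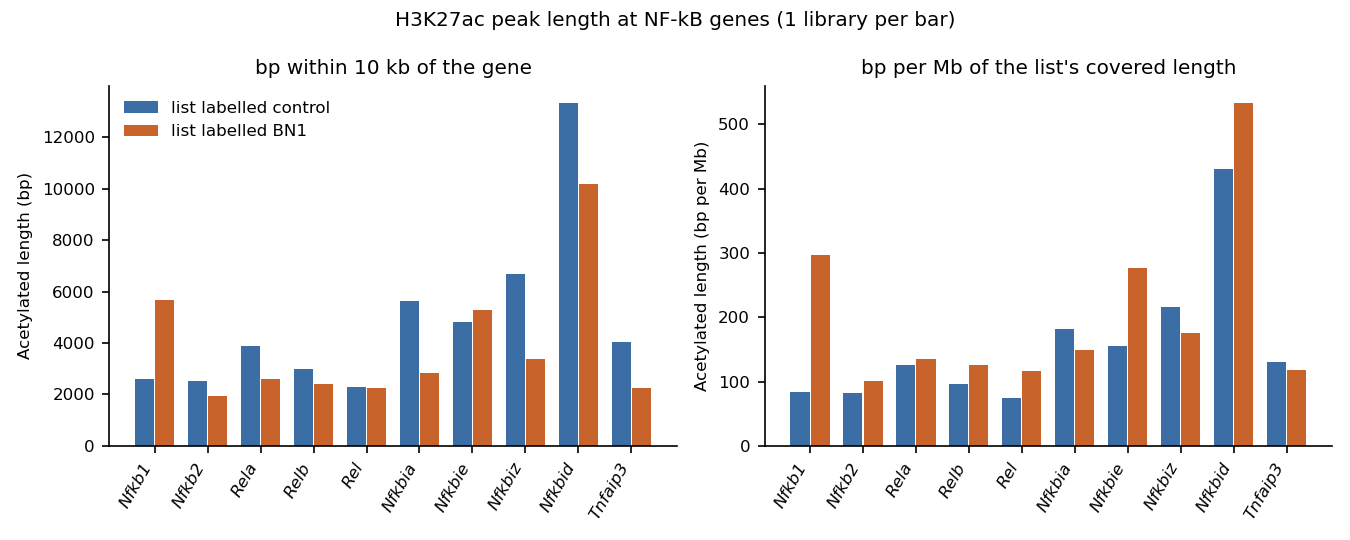
Acetylated length of the 10 genes, in bp (left) and in bp per Mb of each list's covered length (right), 1 bar per library. Nfkb1 and Nfkbie have the taller BN1 bar on both scales, Nfkbia, Nfkbiz and Tnfaip3 the taller control bar on both, and the other 5 genes change order with the scale.

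The lists cover different totals, and scaling to bp per Mb of covered length moved every log2 ratio of BN1 over control by 0.70. Lengths are therefore given in bp and comparisons per Mb. On the scaled measure the 10 genes had a median log2 ratio of 0.31, and the 10988 genes with a peak in both lists had a median of 0.33 (quartiles -0.33 and 0.77). A difference was called where the scaled lengths differed at least 2-fold. By that rule 1 of the 10 genes, Nfkb1, was longer in the BN1-labelled list, where 11.8% of all genes were called (15.9% of those with a peak in both lists), and 0 were longer in the control-labelled list, where 14.2% of all genes were called (12.0% of those with a peak in both lists). Both counts lie below those background shares. In plain bp the rule called the same gene alone, with 6.55% of all genes called towards BN1 and 21.0% towards control. Without a fold minimum, 8 genes had more bp under the control label and 2 under BN1, and per Mb 3 and 7. Genes with a peak in both lists leaned the same ways, with a median log2 ratio of -0.37 in bp and 0.33 per Mb. The 10 genes had medians of -0.39 and 0.31, so these counts mark no trait of their own.

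**Figure D2:**
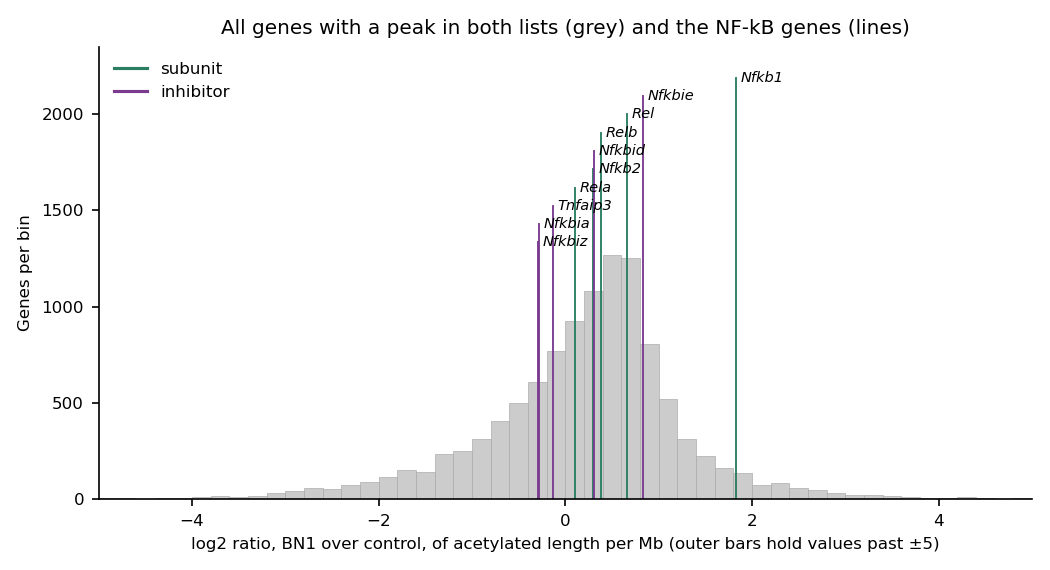
Histogram of the log2 ratio (BN1 over control) of acetylated length per Mb for all 10988 genes with a peak in both lists, in grey, with a labelled line for each of the 10 genes. Nfkb1, at 1.83, stands in the right tail, and the other 9 lie between -0.30 and 0.84.

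Peaks at the ends of these genes were mostly common to both libraries, as were most end peaks of all genes. In the control-labelled list 16 of 25 window peaks met a peak of the other list, sharing at least 1 bp (64.0%, exact 95% binomial interval 42.5 to 82.0, for counting error only), beside 41.2% of all its peaks. In the BN1-labelled list it was 19 of 23 (82.6%, 61.2 to 95), beside 62.6%. The shares differed by position. At gene ends 11 of 12 control peaks (interval 61.5 to 99.8) and 11 of 11 BN1 peaks (71.5 to 100) were shared, where 78.2% and 87.9% of all end peaks were. Away from the ends, 5 of 13 control peaks (13.9 to 68.4) and 8 of 12 BN1 peaks (34.9 to 90.1) were shared, where 21.8% and 42.1% of all such peaks were. Each of these intervals by position holds the share of all peaks beside it. Most unshared peaks were small, with 8 of 9 in the control-labelled list and 3 of 4 in the BN1-labelled list narrower than the median peak of their list (755 and 739 bp). The 9 in the control-labelled list had a median width of 237 bp and a median fold enrichment of 4.64, and the 4 in the BN1-labelled list a median width of 613.5 bp and a median fold enrichment of 4.42. Fold enrichment is the authors' own value for the summit of a peak, and it describes a peak within its list.

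The end peaks of the 9 genes were mostly strong and wide ones within each list. Taking the strongest end peak of each gene, the median fold enrichment was 24.4 in the control-labelled list, where it was 13.1 over the 8395 genes with an end region in both lists. The corresponding medians in the BN1-labelled list were 21.5 and 13.5. Median width was 2317 bp against 1425 bp in the control-labelled list, and 2261 bp against 1202 bp in the BN1-labelled list. Of the 9, 8 lay above the all-gene median of fold enrichment in each list, with Nfkbie below it in both (12.8 and 11.8). For width, 9 lay above the median in the control-labelled list and 8 in the BN1-labelled list, with Nfkbiz below it (1067 bp). The control median of fold enrichment is the value of Nfkbid, whose peak also spans the neighbours Tyrobp and Hcst and need not belong to Nfkbid.

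**Figure D3:**
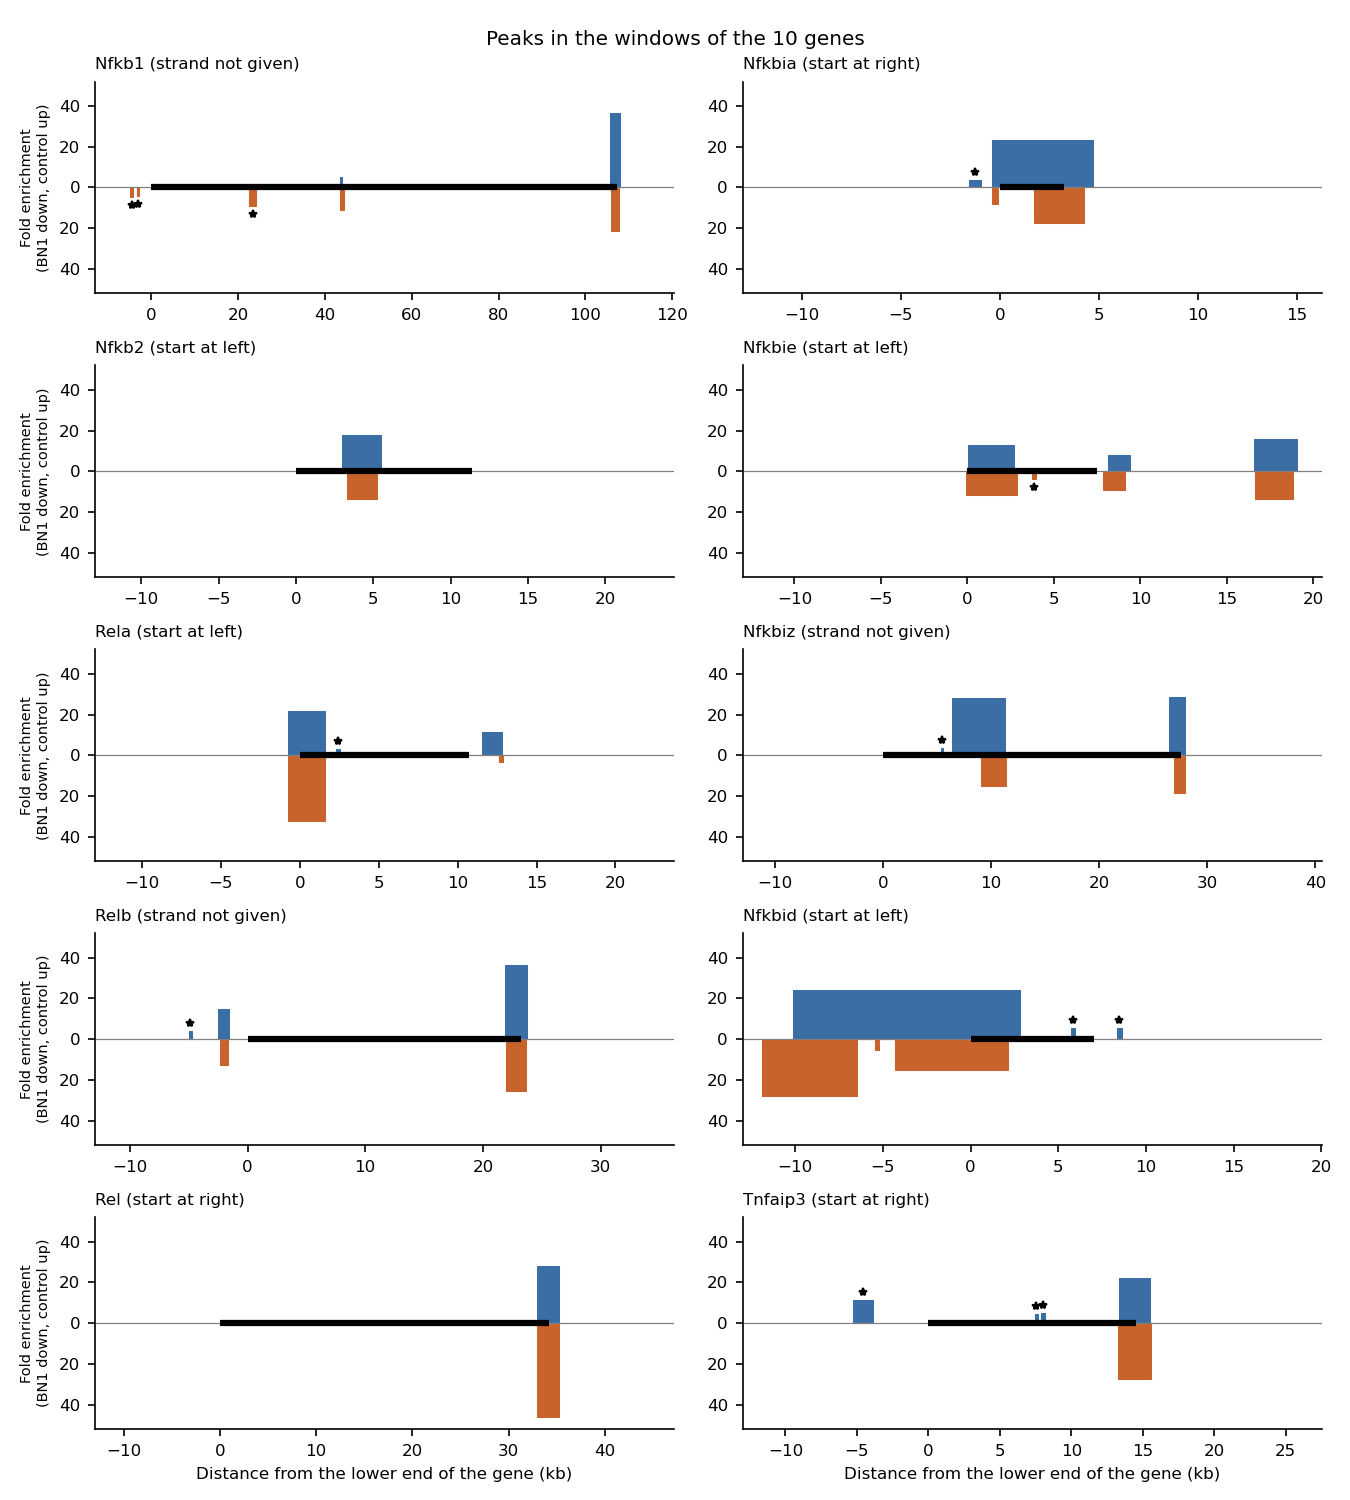
Peaks in the window of each gene, with distance from the gene's lower end in kb on the x axis and fold enrichment on the y axis, control upwards in blue and BN1 downwards in orange. Black bars mark the gene span and stars mark peaks with no overlap in the other list. The tall blocks stand opposite each other in the 2 lists, and the starred ones are mostly narrow, except those of 1547 bp at Nfkb1 (BN1) and 1401 bp at Tnfaip3 (control).

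Among the subunits, Nfkb1 differed most. It encodes p105, which is processed to the DNA-binding subunit p50, and spans 107315 bp (GRCm38/mm10, chr3:135584655-135691969). Its strongest peak lay at the upper end of the gene in both lists, 2317 bp wide with a fold enrichment of 36.3 in the control-labelled list and 2012 bp wide with a fold enrichment of 21.5 in the BN1-labelled list. The whole of the second lay inside the first. The libraries parted inside the gene and below it. The BN1-labelled list had a peak of 1547 bp (chr3:135607269-135608815, fold enrichment 9.16, −log10 q 27.6) inside the gene that the other list lacked, at the lower end of the long non-coding RNA gene Gm46827. It also had peaks of 660 and 567 bp beyond the lower end, likewise without a counterpart, with fold enrichments of 4.79 and 4.04. A further site inside the gene was called in both, with 902 bp and a fold enrichment of 10.9 in the BN1-labelled list and 287 bp and 5.03 in the control-labelled list. In all, Nfkb1 had 2604 bp in 2 peaks in the control-labelled list and 5688 bp in 5 peaks in the BN1-labelled list, a 3.54-fold difference per Mb. Of the genes with a peak in both lists, 95.4% had a lower log2 ratio. Without the flanks the lengths were 1930 and 3969 bp.

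None of the other 4 subunits reached the 2-fold rule: per Mb they were longer in the BN1-labelled list by 1.58-fold at Rel, 1.30-fold at Relb, 1.23-fold at Nfkb2 and 1.08-fold at Rela, while in plain bp all 4 were longer in the control-labelled list. Rel encodes c-Rel, a transactivating subunit of lymphoid and myeloid cells (chr11:23736847-23770969). Its window held a single peak per list, at the start, of 2287 bp in the control-labelled list and 2232 bp in the BN1-labelled list. These peaks began 47 bp and ended 8 bp apart, although their summits lay 377 bp apart. With 97.6% of the joint length in common, Rel was the most alike of the 10 genes. Its fold enrichment of 45.9 was the highest of any window peak in the BN1-labelled list, and it was 28.0 in the control-labelled list.

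Rela encodes p65, the transactivating partner of p50 in the canonical dimer (chr19:5637442-5648134). Its promoter peak was nearly the same stretch in both lists, 2370 and 2358 bp with 2344 bp in common, and had fold enrichments of 22.0 in the control-labelled list and 32.1 in the BN1-labelled list. Beyond the far end of Rela, towards Sipa1, the control-labelled list had 1290 bp with a fold enrichment of 11.3, while the BN1-labelled list had 224 bp with a fold enrichment of 3.12. A control peak of 237 bp inside the gene had the lowest fold enrichment of the window peaks of that list (2.94). The totals were 3897 and 2582 bp.

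Relb and Nfkb2 encode the pair of the non-canonical pathway, in which p100 from Nfkb2 is processed to p52 and joins RelB. Relb (chr7:19606217-19629438) had a peak at its upper end of 1860 bp in the control-labelled list and 1722 bp in the BN1-labelled list, with fold enrichments of 36.5 and 25.6. The former was the highest of the window peaks in the control-labelled list. A second shared peak in the Relb window lay at the end of the neighbouring gene Clasrp, and an unshared control peak of 237 bp lay inside that gene. The Relb totals were 2995 and 2408 bp. Nfkb2 (chr19:46300994-46312400) had a single peak per list, of 2528 bp in the control-labelled list and 1920 bp in the BN1-labelled list, and the BN1 peak lay wholly inside the control peak. Over the 5 subunits together, 79.6% of the control length and 76.8% of the BN1 length was covered in both.

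The 5 inhibitors together had 34511 bp in the control-labelled list and 23953 bp in the BN1-labelled list. Of the BN1 length, 95.9% was also covered in the control-labelled list, and of the control length, 66.6% was also covered in the BN1-labelled list. Summed over all genes with a peak in both lists, these shares were 75% and 51%, and the median gene had 91.0% and 64.8%. The inhibitors differed among themselves: the BN1-labelled list covered 50.1% of the control length at Nfkbia, 48.8% at Nfkbiz and 54.0% at Tnfaip3, but 93.9% at Nfkbie and 76.4% at Nfkbid. The first 3 shares lie under the median gene's and the last 2 above it. Per Mb, these 3 inhibitors were longer under the control label and Nfkbie and Nfkbid under BN1, and no inhibitor reached the 2-fold rule per Mb.

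Nfkbia encodes IkBα, the classical inhibitor, which NF-kB itself induces (chr12:55489409-55492647). In the control-labelled list a peak of 5068 bp (fold enrichment 23.2) ran across the whole gene, from 1432 bp before the start site to 3635 bp after it. In the BN1-labelled list the same stretch held a peak of 2537 bp at the start (fold enrichment 17.3) and a separate peak of 316 bp at the far end (8.25). The smaller peak lay wholly outside the gene span. Inside the span the BN1-labelled list thus covered 1511 bp next to the start, and the control-labelled list all 3239 bp. Together with a weak control peak of 579 bp downstream, the lengths were 5647 and 2853 bp, or 182 and 149 bp per Mb.

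Nfkbiz encodes IkBζ, a nuclear IkB protein that works as a coregulator of secondary response genes (chr16:55811375-55838954). Both lists had a peak at the upper gene end, which also lies within 1000 bp of Nxpe3, and a larger one inside the gene. The inner peak measured 4902 bp in the control-labelled list and 2294 bp in the BN1-labelled list, with fold enrichments of 28.2 and 15.0. Its summits were 15 bp apart and its upper edges 92 bp apart, while the control peak reached 2700 bp further towards the lower end. The totals of 6695 and 3361 bp are 216 and 176 bp per Mb.

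Tnfaip3 encodes A20, a ubiquitin-editing enzyme that ends NF-kB signalling (chr10:19000910-19015410). Its promoter peak was alike in the lists, 2179 bp in the control-labelled list and 2261 bp in the BN1-labelled list, with summits 9 bp apart, the closest of the 19 overlapping pairs in these windows. The difference lay elsewhere: the control-labelled list alone had 1401 bp (chr10:18995653-18997053, fold enrichment 11.2) beyond the far end of the gene, the widest and strongest of its 9 unshared window peaks, and a pair of small peaks of 221 and 231 bp inside it. The totals were 4032 and 2261 bp. Per Mb the log2 ratio was -0.14, and it was 0.27 without the flanks.

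Nfkbie and Nfkbid have neighbours whose own promoters lie in their windows, so their lengths need not belong to them. Nfkbie encodes IkBε (chr17:45555700-45563169). Its window held 4805 bp in the control-labelled list and 5289 bp in the BN1-labelled list, of which the peak over the first part of the gene made up 2658 and 2902 bp. The other shared peaks lay at ends of Slc35b2 and of Hsp90ab1, a cytosolic chaperone gene. A BN1 peak of 228 bp inside Nfkbie was the weakest of the unshared peaks of that list. Nfkbid encodes IkBNS, a nuclear IkB protein (chr7:30421731-30428749). The widest control peak of these windows, 12946 bp, ran from beyond Tyrobp and Hcst, genes of adaptor proteins of myeloid and NK cells, over the start of Nfkbid. In the BN1-labelled list that stretch was split into peaks of 5383, 230 and 6448 bp. Unshared control peaks of 211 and 273 bp lay near the far end of Nfkbid, and the window totals were 13332 and 10189 bp. Inside the gene span itself, Nfkbid had 3059 bp in the control-labelled list and 2147 bp in the BN1-labelled list.

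RefSeq start sites (GRCm38.p6) were matched for 7 of the 10 genes, and those of Nfkb1, Relb and Nfkbiz were not used here. At 6 of the 7 a start site lay inside a peak in both lists, as it did for 31.3% of 17492 genes. At Nfkbie the control peak began 14 bp downstream of the start site and the BN1 peak 65 bp upstream of it. Peaks reached further into the gene than away from it at the first start site of Nfkb2 (1760 bp downstream and 767 bp upstream in the control-labelled list, 1497 and 422 bp in the BN1-labelled list), Rela (1511 and 858 bp, and 1525 and 832 bp) and Nfkbia (3635 and 1432 bp, and 1510 and 1026 bp). They were nearly symmetric at Rel (1214 and 1072 bp, and 1167 and 1064 bp) and Tnfaip3 (1168 and 1010 bp, and 1207 and 1053 bp). At the later start sites of Nfkb2 the same peaks reached further upstream (at the second, 802 bp downstream and 1725 bp upstream in the control-labelled list). So did the peaks at every start site of Nfkbid, which also span its neighbours (at the first, 2847 and 10098 bp in that list).

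**Figure D4:**
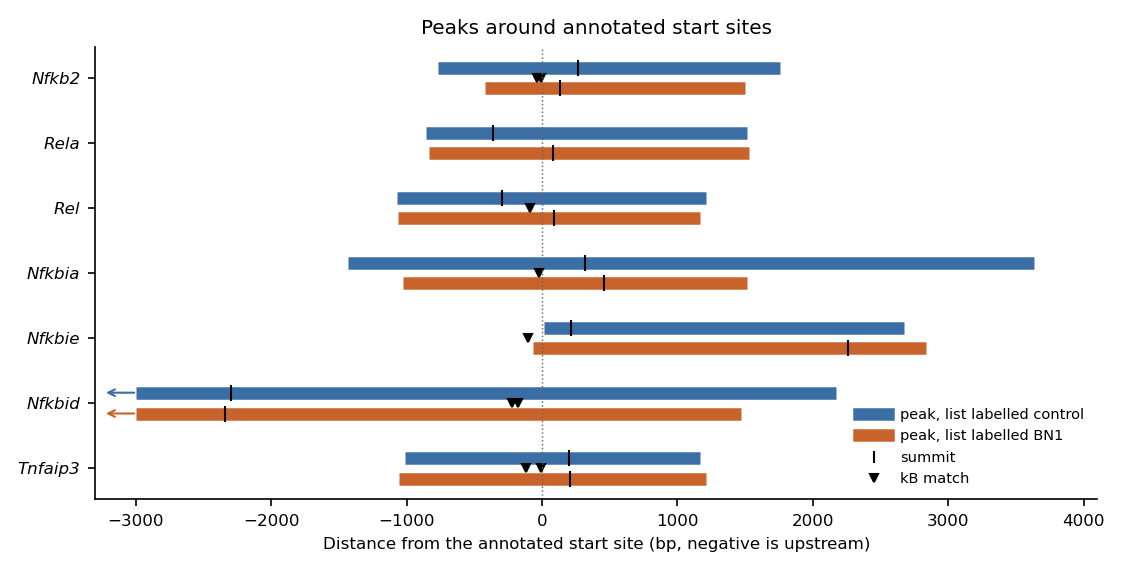
Extent of the peak at the start site of 7 genes, in bp from the annotated start (negative upstream), for the lists labelled control (blue) and BN1 (orange), with summits as ticks and kB matches as triangles. For Nfkb2, Nfkbid and Tnfaip3 1 of their annotated start sites is drawn, and the Nfkbid peaks run on past the left edge. Ends coincide closely at Rela, Rel and Tnfaip3, and the control peak of Nfkbia runs on across the gene.

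The 250 bases before these start sites were searched on both strands for the kB consensus motif, the sequence bound by NF-kB dimers. Windows of the genes with a match are shown: 6 of the 7 genes held one in at least 1 of their windows, and 9.08% of all genes in the table did. By window the motif was found in 8 of 12, against 7.91% of 21263 promoter windows, and in 7 of the 10 whose start site was acetylated in both lists, against 9.39% of all 6327 such windows. Rela had no match. GGGCGG, the GC box, occurred in 9 of the 12 windows and in 42.6% of all, TGANTCA in 3 and 6.13%, TGACGTCA in 1 and 1.92%, and TATAAA in 1 and 11.6%. No kB match overlapped a GC box. A match is only a run of letters and does not show binding. Capitals mark the kB matches in the sequences, which run 5′ to 3′ towards the start site on the gene's strand.
Nfkb2, chr19:46304487-46304736, plus strand: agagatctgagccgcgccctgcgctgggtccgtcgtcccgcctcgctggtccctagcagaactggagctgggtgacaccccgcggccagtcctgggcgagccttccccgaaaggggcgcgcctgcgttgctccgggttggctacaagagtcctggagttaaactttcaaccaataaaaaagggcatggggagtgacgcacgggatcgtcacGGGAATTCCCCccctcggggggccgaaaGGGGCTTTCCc
Rel, chr11:23770970-23771219, minus strand: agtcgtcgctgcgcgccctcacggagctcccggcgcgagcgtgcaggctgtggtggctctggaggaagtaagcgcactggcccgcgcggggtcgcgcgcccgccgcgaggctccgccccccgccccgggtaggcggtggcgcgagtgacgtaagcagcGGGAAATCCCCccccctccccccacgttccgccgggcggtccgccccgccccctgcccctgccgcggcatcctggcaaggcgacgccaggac
Nfkbia, chr12:55492648-55492897, minus strand: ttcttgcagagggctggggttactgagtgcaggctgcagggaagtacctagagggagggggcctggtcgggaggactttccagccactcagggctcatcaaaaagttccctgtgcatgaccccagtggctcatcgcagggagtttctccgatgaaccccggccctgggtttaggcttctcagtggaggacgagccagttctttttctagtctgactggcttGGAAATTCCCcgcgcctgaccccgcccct
Nfkbie, chr17:45555450-45555699, plus strand: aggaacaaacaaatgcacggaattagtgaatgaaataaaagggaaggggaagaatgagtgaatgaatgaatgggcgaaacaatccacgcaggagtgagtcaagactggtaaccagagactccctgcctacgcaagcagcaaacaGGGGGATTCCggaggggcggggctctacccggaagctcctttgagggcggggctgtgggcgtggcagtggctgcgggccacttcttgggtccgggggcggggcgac
Nfkbid, second of 3 annotated start sites, chr7:30422156-30422405, plus strand: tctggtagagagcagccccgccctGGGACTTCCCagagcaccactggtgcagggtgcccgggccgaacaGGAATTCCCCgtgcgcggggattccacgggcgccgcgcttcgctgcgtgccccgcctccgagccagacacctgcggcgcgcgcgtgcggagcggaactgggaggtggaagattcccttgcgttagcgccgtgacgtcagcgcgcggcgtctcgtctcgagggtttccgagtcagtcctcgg
Tnfaip3, chr10:19015411-19015660, minus strand: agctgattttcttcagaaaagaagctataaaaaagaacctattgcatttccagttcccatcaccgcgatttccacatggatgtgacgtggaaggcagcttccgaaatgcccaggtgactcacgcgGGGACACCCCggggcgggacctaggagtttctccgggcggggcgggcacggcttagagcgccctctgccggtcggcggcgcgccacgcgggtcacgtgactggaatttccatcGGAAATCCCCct

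Of the 11 separate stretches of kB matches in the 12 windows, 10 lay inside a peak in both lists. The match of Nfkbie, which ends 97 bases before its start site, lay in a peak of neither. The matches nearest to a start site were those of Nfkb2, 2 bases before it, of Tnfaip3, 3 bases before it, and of Nfkbia, 20 bases before it. The Nfkb2 window shown holds 2 stretches, as do those of Tnfaip3 and Nfkbid. The Rel window was the richest in CG dinucleotides of the 12, with 37. That of Nfkbia, with 8, and the Tnfaip3 window not shown, with 6, lay under the median of 10 over all promoter windows.

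Other genes of the pathway were acetylated as well, and most did not differ 2-fold. Of 92 listed genes, 87 had a peak in either list and 65 had an end region in both, where 38.4% of all genes had one. At least 2-fold longer per Mb were 24 in the control-labelled list and 10 in the BN1-labelled list, beside 14.2% and 11.8% of all genes. Among all genes with a peak in either list, 22.8% were called in the first direction and 19.0% in the second. The median difference over the 92 genes, BN1 minus control, was 0 bp per Mb. It was also 0 over all 21887 genes, those without a peak included. Over all genes with a peak in either list it was 10.2 bp per Mb.

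The other IkB proteins, Nfkbib, Bcl3 and Nfkbil1, had end regions in both lists and none was called. Bcl3, a nuclear IkB protein that binds p50 and p52 dimers, had 5642 bp in the control-labelled list and 3973 bp in the BN1-labelled list, and Nfkbib, the gene of IkBβ, had 2361 and 1490 bp. The list named for the IkB kinase (IKK) complex and activating kinases has 11 genes, and each carried an end region under both labels. Of these genes, 2 were longer in the control-labelled list (18.2%) and 2 in the BN1-labelled list (18.2%). The background shares were 14.2% and 11.8% of all genes, or 22.8% and 19.0% of those with a peak in either list. Ikbke, an IKK-related kinase gene, had 8538 bp under the control label against 592 bp under BN1, and Ikbkb, the gene of the catalytic subunit IKKβ, had 2346 against 3336 bp. In plain bp 4 of the 11 were called towards control and 0 towards BN1, beside 21.0% and 6.55% of all genes. With the top 10000 peaks of each list, the counts were 2 and 0. Of 22 adaptors and ubiquitin ligases, 3 were longer in the control-labelled list (13.6%) and 0 in the BN1-labelled list, beside the same background shares. Irak2, a kinase of Toll-like receptor signalling, had the longest coverage of those named, with 28268 and 14927 bp, and was not called.

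Of 11 partners of A20 and other brakes on the pathway, 3 were longer in the control-labelled list and 1 was longer in the BN1-labelled list. These are 27.3% and 9.09%, beside 14.2% and 11.8% of all genes, or 22.8% and 19.0% of those with a peak in either list. Tnip1, which encodes the A20-binding protein ABIN1, had 16139 bp in 10 peaks in the control-labelled list and 1205 bp in 1 peak in the BN1-labelled list. Tnip3 had 6931 bp in 9 peaks and was listed at 0 in the BN1-labelled list. Zc3h12a, an RNase that degrades inflammatory transcripts, had 14647 and 5755 bp and was not called per Mb. Of 17 receptors, 4 were longer in the control-labelled list (23.5%) and 5 in the BN1-labelled list (29.4%), beside the same background shares. Tnfrsf11a, which encodes RANK, had 6153 bp in the control-labelled list only, Tlr4, the lipopolysaccharide receptor, had 4577 and 391 bp, and Nod1, a cytosolic sensor of peptidoglycan, went the other way with 1433 and 3453 bp.

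The target genes of NF-kB, the longest of the 6 lists, had 12 of 28 longer in the control-labelled list (42.9%, beside 14.2% of all genes) and 2 in the BN1-labelled list (7.14%, beside 11.8%). Of the 28, 24 had a peak in either list, and among all genes with such a peak 22.8% and 19.0% were called. With the top 10000 peaks of each list alone, these counts were 7 and 1. Ccl2, a monocyte chemokine, had 7639 bp in 9 peaks under the control label and was listed at 0 under BN1. Cxcl2, a neutrophil chemokine, had 7158 and 576 bp. Cflar, an inhibitor of caspase activation, had 21205 and 4651 bp, and the survival gene Bcl2l1 had 21481 and 6497 bp. Il6, Il12b, Vcam1 and Cxcl10, named after their values were seen, had no peak in either list. Many of these targets are genes of monocytes and macrophages, whose markers differed in the same direction as given above, and the part of cell type in the counts was not tested. The Bcl2a1 copies in this list are near-identical, so their reads are uncertain.

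**Figure D5:**
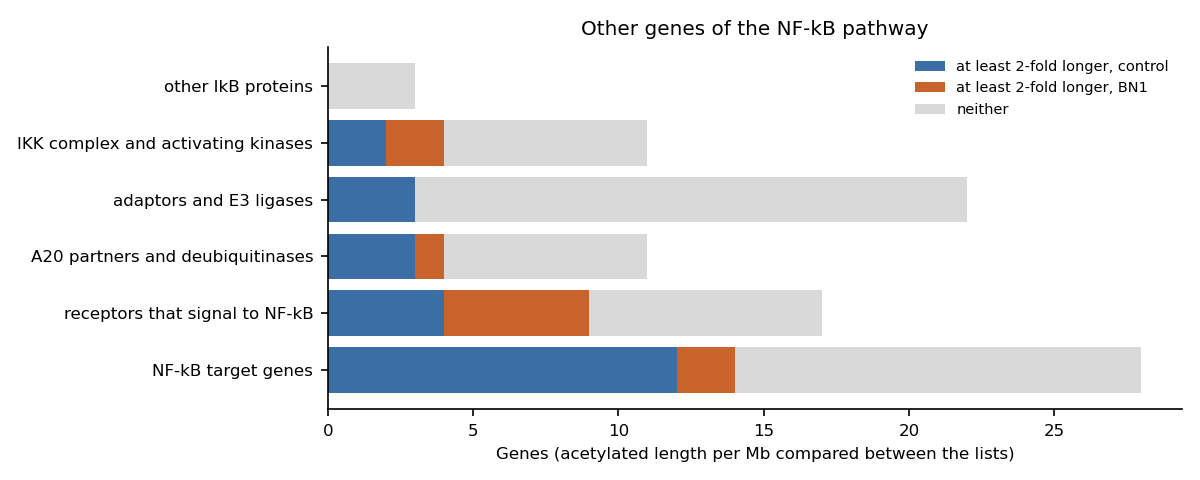
Number of genes (x axis) in each list of other pathway genes (rows) that were at least 2-fold longer per Mb in the control-labelled list (blue), in the BN1-labelled list (orange) or in neither (grey). The target genes have the longest blue segment, 12 of 28, and the other IkB proteins none.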

How the data were processed

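Labels name 4 samples. The 2 immunoprecipitated libraries, grouped by title, each have 1 narrowPeak list without a header, and the 2 input libraries were not analysed here. Bowtie2 2.5.4, Picard 3.2.0, deepTools 3.5.1, MACS3 3.0.1 and mm10 (GRCm38) appear in the submitters' processing notes without a role. Use of input, pooling and the threshold: not given in the sources used here. For each peak the authors deposited a fold enrichment (a linear ratio), −log10 p, −log10 q and a score, the last of which was not used. Read depth is unknown.

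Gene spans came from RefSeq GRCm38.p6, which gives no exons. Windows added 10 kb to each side, and covered bp were counted within them, also per Mb of the list's covered length. Peaks sharing at least 1 bp were called shared, and gene ends were taken with 1000 bp on either side. Intervals are exact (Clopper-Pearson, 95%) and cover counting error only. Promoter sequences came from RefSeq GRCm38.p6. The functions were tested on simulated data for 200 genes, with 0 wrong values. Python 3.11.15, numpy 2.4.6, pandas 2.3.3, scipy 1.17.1 and matplotlib 3.10.9 were used.

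The genes and the pathway and marker lists were chosen with earlier results of these data known. Named were the 10 genes and up to 4 genes per pathway list with the largest absolute difference per Mb. Of the marker lists, 2 genes are not reported here and were left out of the counts and sums. T and NK lymphoid markers had 5655 bp under the control label and 14326 bp under BN1, and erythroid markers 6455 and 11436 bp. Alternatives covered −log10 q minimums of 5 and 10, lists of equal length, the top 10000 peaks, flanks of 0 and 50 kb, plain bp, other overlap rules and end windows of 500 and 2500 bp.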

Additional observations from a re-analysis of the deposited data

How the results depend on the processing

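No paired analysis was possible because each group holds 1 library. Nfkb1 was the 1 gene called, towards BN1, and none was called towards control, under all 7 alternatives for length. Differences (BN1 minus control) kept their sign under all 7 at Nfkb1, Nfkbie, Nfkbia and Nfkbiz. In plain bp, by construction without the scaling, they were -608 at Nfkb2, -3143 at Nfkbid and -55 at Rel, against positive values per Mb. Rela and Relb likewise turned, to -1315 and -587. On that scale 38 of the 92 pathway genes were called towards control, beside 21.0% of all genes. Per Mb it was 24 of the 92, beside 14.2% of all genes. With the top 10000 peaks of each list the Rela difference was -25.9 bp per Mb. The Tnfaip3 difference of -11.7 bp per Mb turned to 0.798 with a −log10 q minimum of 10, to 30.4 with 50 kb flanks and to 10.9 without flanks, the last 2 by counting other stretches of the locus. Of the control peaks in the windows, 87.5% were shared with that minimum, 83.3% with lists of equal length and 86.7% with the top 10000 peaks, where fewer weak peaks are counted. The target genes called towards control, 12 in the main analysis, ranged from 7 (the top 10000 peaks) to 15 (plain bp). The other 53 alternative values for the counts and shares of the 10 genes, and for the calls over the whole pathway, stayed within 1.5 times the main count or within its interval. Depth could not be weighed, because the lists hold no reads.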
